A study of Mus musculus with 9 samples.

Results

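The postsynaptic density scaffold genes Dlg2, Dlg3, Dlg4, Dlgap1, Shank1, Shank2, Shank3, Homer1 and Homer2 were examined in the hippocampus of mice of 3 genotypes for the mitochondrial protein IF1. Every non-control probe that the array annotation assigned to 1 of these 9 genes was taken, which gave 20 of 39429 probes. The postsynaptic density is the protein-rich layer under the membrane of excitatory synapses. MAGUK proteins of the Dlg family hold glutamate receptors there, Dlgap proteins link them to Shank proteins, and Shank proteins are joined by Homer proteins to metabotropic glutamate receptors and to calcium channels of internal stores. The short form of Homer1, known as Homer1a, is induced by neuronal activity and lacks the part through which the long forms pair.

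IF1, encoded by Atpif1, is the physiological inhibitor of the mitochondrial ATP synthase. RNA of 3 groups of 9-month-old male mice, kept on C57BL/6J, was hybridized with a single dye to Agilent 60-base arrays, 1 mouse per array and 3 mice per genotype. The KO mice lost a floxed exon of Atpif1 in cells that express Cre under the Camk2a promoter, that is, mainly excitatory neurons of the forebrain, so other cells of the tissue kept the gene. The TG mice carried human IF1 under a tetracycline-responsive element, switched on by a transactivator that the Camk2a promoter drives. The control mice are labelled CRL, and the labels used here do not say which of these alleles they carried.

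Each value is a log2 intensity from which the 75th percentile on the same array was subtracted, so a value of 0 equals that percentile, and levels of different probes are not compared. The share of probes well above background was 71.0% to 72.9% on KO arrays, 72.2% to 74.9% on CRL arrays and 66.7% to 69.5% on TG arrays. Slide 1 held TG replicates 1 and 2, slide 2 held KO replicate 1, CRL replicates 1 and 2 and TG replicate 3, and slide 3 held KO replicates 2 and 3 and CRL replicate 3. The 6 leading markers of the tissue (Prox1 of dentate granule cells, Wfs1 of CA1, Grik4 of CA3, and Slc17a7, Camk2a and Nrgn of excitatory neurons) were well above background on all 9 arrays. Marker lists of cell types and regions were summarised by their mean on an array, set against the mean over all arrays. For 7 choroid plexus genes it ranged from -2.12 on KO replicate 2 to 3.30 on TG replicate 1. TG replicate 1 was also the lowest array for dentate gyrus (-0.48), CA1 (-0.44), CA3 (-0.48) and interneuron genes (-0.47). CRL replicate 3 was the highest for striatal genes (0.93) and TG replicate 2 for thalamic genes (0.52). In limma, 2 of 9 thalamic probes were called higher in TG than in CRL and 1 higher in TG than in KO. Of 10 striatal probes 1 was lower in TG and 1 lower in KO than in CRL, and of 10 interneuron probes 1 was lower in TG than in CRL. Of 13 astrocyte and 16 oligodendrocyte probes 1 each was higher in TG than in KO. Of all probes, 3.8% were called between TG and KO, 4.47% between TG and CRL and 1.07% between KO and CRL. For the other lists (excitatory neuron, astrocyte, oligodendrocyte, microglia and endothelial genes) it lay between -0.39 and 0.25. The part of these differences in the scaffold values was not tested.

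The Atpif1 probe gave 6.44, 5.20 and 5.53 on the KO arrays, 6.32, 6.34 and 6.19 on the CRL arrays and 6.43, 6.39 and 6.51 on the TG arrays. The array labelled KO replicate 1 thus lay at the CRL level, and the other two KO arrays lay below every CRL array. KO minus CRL was -0.56 (SE 0.27, limma adjusted P = 1), which did not pass the threshold of a 1.5-fold change with an unadjusted P below 0.05. It was -0.92 without the array labelled KO replicate 1, which passed it (limma adjusted P = 0.982), -0.30 without KO replicate 2 and -0.36 with slide as a fixed block, which did not. TG minus KO was 0.72 (SE 0.27, limma adjusted P = 0.68) and passed. The array labelled KO replicate 1 lay within the range of the TG arrays, so this difference came from KO replicates 2 and 3. Its value with an array left out was not taken. Whether the probe lies in the deleted exon was not determined, and the human transgene has no probe here. The scaffold counts over the 3 comparisons were therefore also taken without that array.

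The probes of Homer1 and Dlgap1 are shown because the annotation lists them under different transcript variants of the gene, so the probes of 1 gene need not report the same RNA. The first 30 bases of each 60-base probe are printed, except for the second Dlgap1 probe, where bases 25 to 54 are given. Capitals mark the polyadenylation signal AATAAA, searched on the printed strand only.
Homer1 A_55_P2122789, variant S: tgatagccgggcaaacactgtttatggact
Homer1 A_55_P1982122, variant S: tttgacaccagaaagtatcaatgggacaga
Homer1 A_55_P1982121, variant S: cagaatgcattgccatttccacataggtac
Homer1 A_66_P104134, variant L: gagctagctaccctcaaaggcaacaatgcc
Homer1 A_55_P1982111, variant L: caggggtcagtcccatctgtgtataagtta
Dlgap1 A_51_P520650, variant 1: ctcactggtacttcatcaaccaagcttcaa
Dlgap1 A_55_P1959728, variant 2: caacagtttagaAATAAAgactcgagttct
Dlgap1 A_52_P443073, variant 1: tgtagagatgttttttagttcataatgaac

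On mm9, the Homer1 probes lie on the plus strand of chromosome 13, in the order listed, at chr13:94116595-94116654, chr13:94125924-94125983, chr13:94126009-94126068, chr13:94157507-94157566 and chr13:94174815-94174874. The variant S probes A_55_P1982122 and A_55_P1982121 are 25 bases apart, and the latter is 31438 bases from the first variant L probe. Short and long Homer1 transcripts share their first exons, so a probe listed under variant S may also detect variant L, and which of the 3 do so was not determined. The Dlgap1 probes lie at chr17:71168189-71168248, chr17:71165374-71165433 and chr17:71170058-71170117. The variant 2 probe was the 1 scaffold probe of 20 (5.0%) that held AATAAA, against 12.6% of all 39429 probes.

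All 20 scaffold probes met the filter on dim probes, which asks for a signal well above background throughout 1 genotype, and none was saturated, so every member was tested. None of them passed the threshold of a 1.5-fold change with an unadjusted P below 0.05 in limma, in any of the 3 comparisons. Among the 27991 probes tested, that threshold was passed by 3.8% between TG and KO, 4.47% between TG and CRL and 1.07% between KO and CRL. At an unadjusted P below 0.05 alone, the scaffold count was also 0 in each comparison, where 7.15%, 8.46% and 2.56% of all probes passed. The F test over the 3 genotypes called 0 of 20 scaffold probes at an unadjusted P below 0.05, against 6.01% of all probes. After Benjamini-Hochberg adjustment in limma no scaffold probe passed, and of all probes 0.0107% did between TG and KO, 0.00357% between TG and CRL, 0% between KO and CRL and 0.0107% by the F test. Without the array labelled KO replicate 1, the scaffold counts past the threshold and after adjustment stayed at 0 in each comparison. At an unadjusted P below 0.05 alone, 1 scaffold probe then passed between KO and CRL, against 3.19% of all probes, and none passed in the other comparisons. In bulk tissue, fewer cells of a type and less RNA per cell cannot be told apart.

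At the median, the size of the scaffold estimates was near that of all probes tested, while large estimates were absent, as a description with no test. The median size of the difference, whatever its direction, was 0.13 between TG and KO, 0.16 between TG and CRL and 0.13 between KO and CRL, against 0.16, 0.16 and 0.13 over all probes tested. Across the 20 scaffold probes the median difference was 0.04 between TG and KO, 0.06 between TG and CRL and 0.04 between KO and CRL, against 0.01, 0.00 and -0.01 over all probes tested. No scaffold probe differed by 1.5-fold in either direction, that is, by 0.585 on the log2 scale, which 7.71%, 7.73% and 3.12% of all probes did. The 95% interval lay wholly inside a 1.5-fold change both ways for 13, 14 and 14 of the 20 scaffold probes, so a change of that size was outside the interval for these. The same held for 45.7%, 44.8% and 50.1% of all probes. For the remaining probes the interval reached past a 1.5-fold change in at least 1 direction. The distance from the estimate to either end of the interval ran from 0.251 to 0.968 on the log2 scale and was below 0.585 for 18 of the 20 probes, so an estimate of 1.5-fold would have passed at these. The exceptions were the Homer1 probes A_55_P2122789 and A_55_P1982121. Without the array labelled KO replicate 1, the intervals lay inside a 1.5-fold change for 12, 14 and 12 scaffold probes, against 35.3%, 44.2% and 38.1% of all probes.

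**Figure D1:**
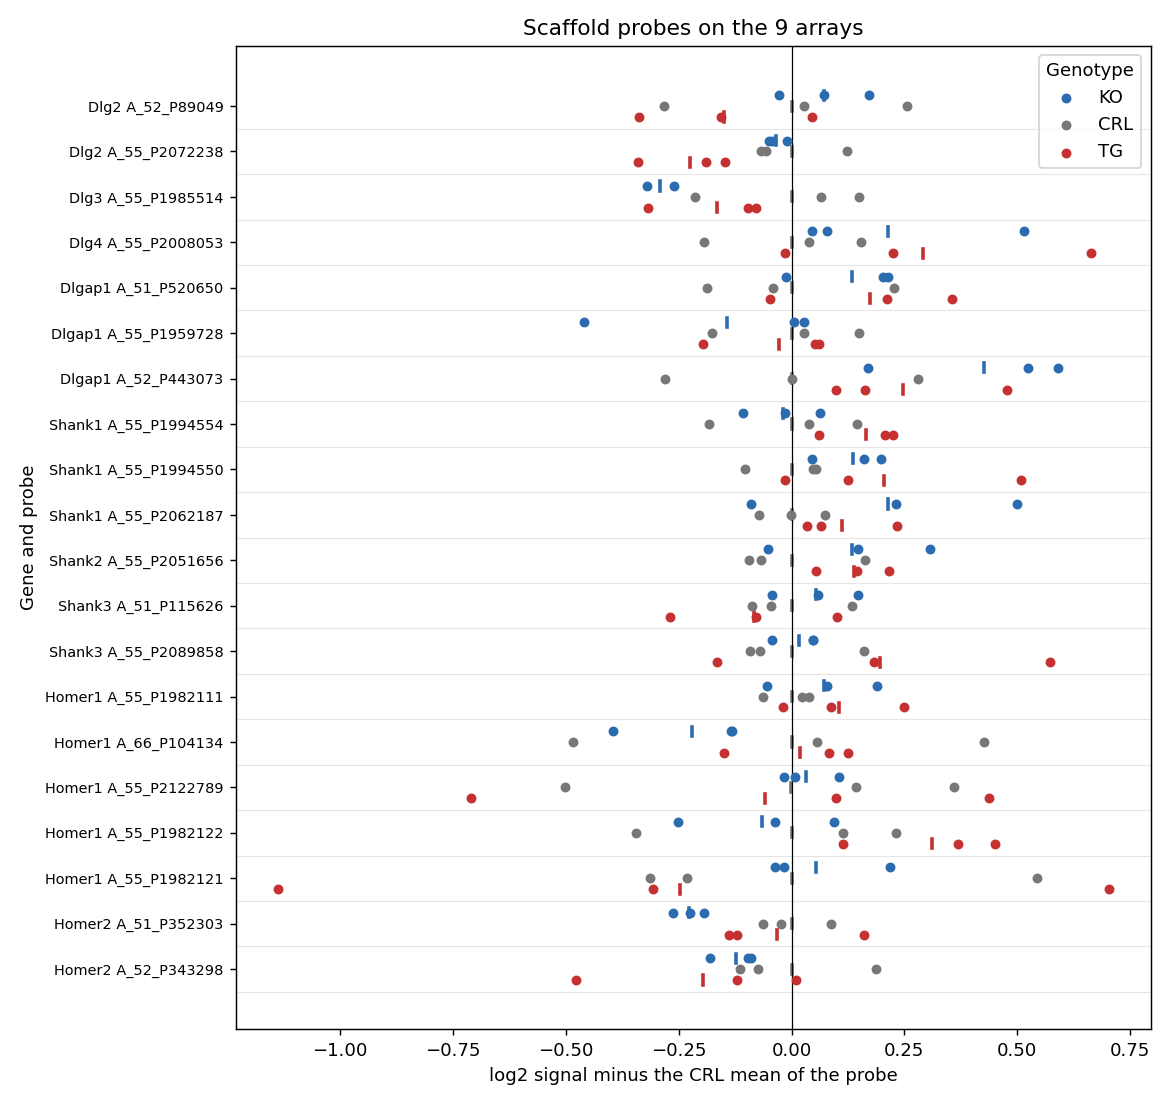
The log2 signal of each scaffold probe on each array, minus the mean of its 3 CRL arrays (x axis), is plotted for each gene and probe (y axis), with a dot per array and a short bar at the genotype mean. The dots of the genotypes are interleaved at most probes, and the widest scatter is that of Homer1 probe A_55_P1982121.

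**Figure D2:**
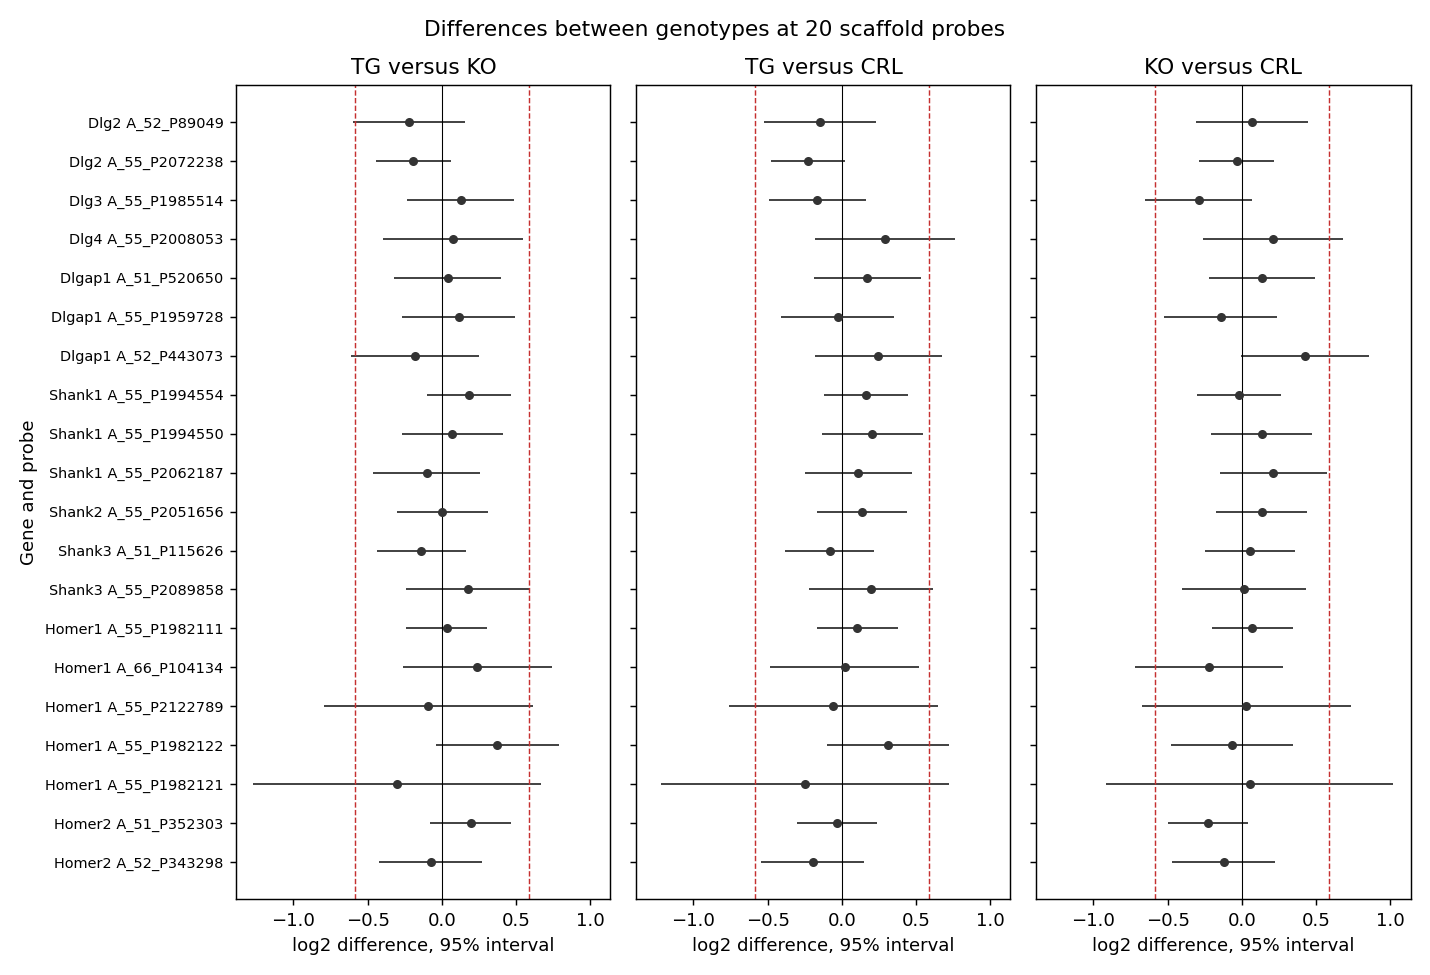
The log2 difference (x axis) of each scaffold probe (y axis) is shown for the 3 comparisons, with a dot for the limma estimate and a line for its 95% interval. Dashed lines mark a 1.5-fold change, and every interval includes 0.

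Among the MAGUK genes, Dlg4 encodes PSD-95, the most studied scaffold of the excitatory synapse. Its probe gave 2.09, 2.56 and 2.12 on the KO arrays, 2.20, 2.08 and 1.85 on the CRL arrays and 2.27, 2.03 and 2.71 on the TG arrays. The genotypes overlapped, and the highest array of KO and that of TG each stood above the rest of their group. TG minus CRL was 0.29 (SE 0.21, limma adjusted P = 0.723), and KO minus CRL was 0.21 (SE 0.21, adjusted P = 1). With each array left out in turn, TG minus CRL ran from 0.11 without TG replicate 3 to 0.44 without TG replicate 2, and KO minus CRL from 0.06 without KO replicate 2 to 0.30 without the array labelled KO replicate 1. With slide as a fixed block, TG minus CRL was 0.66, past the threshold (limma adjusted P = 0.439), and that fit takes the TG difference from TG replicate 3 alone, since slide 1 held no other genotype. Within slide 2, TG replicate 3 was 0.57 above the mean of the 2 CRL arrays.

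Dlg2 encodes PSD-93, a close relative of PSD-95. Its dimmer probe, A_55_P2072238, gave -3.20, -3.17 and -3.21 on the KO arrays, -3.04, -3.23 and -3.22 on the CRL arrays and -3.31, -3.50 and -3.35 on the TG arrays. All TG arrays lay below all 6 other arrays. TG minus CRL was -0.23 (SE 0.11, limma adjusted P = 0.625) and TG minus KO was -0.19 (SE 0.11, adjusted P = 0.724), and neither passed the threshold. With normexp background correction and quantile normalization, these differences were smaller, at -0.14 and -0.10. The brighter Dlg2 probe, A_52_P89049, ranged from 1.74 on TG replicate 1 to 2.33 on CRL replicate 3, and its genotypes overlapped, with TG minus CRL at -0.15 (SE 0.17).

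Dlg3, on the X chromosome, encodes SAP102, the MAGUK that is prominent in young synapses. Its spot on KO replicate 1 was marked as an outlier and left out, so KO had 2 arrays, at 3.84 and 3.90. The CRL arrays gave 4.31, 4.22 and 3.95 and the TG arrays 4.08, 4.06 and 3.84. Both KO arrays were below all CRL arrays, but KO minus CRL was -0.29 (SE 0.16, limma adjusted P = 1). Both of these KO arrays were on slide 3, and within that slide the difference from the 1 CRL array was -0.08.

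Groups of arrays that did not overlap were found at 3 scaffold probes between TG and KO (15%, against 13.7% of all probes), at 1 between TG and CRL (5%, against 12.2%) and at 2 between KO and CRL (10%, against 7.95%). The probes were the dimmer Dlg2 probe, Homer1 A_55_P1982122 and Homer2 A_51_P352303 between TG and KO, the dimmer Dlg2 probe between TG and CRL, and Dlg3 and Homer2 A_51_P352303 between KO and CRL. These shares lay on both sides of those of all probes. Without the array labelled KO replicate 1, which leaves 2 KO arrays, the counts were 3 between TG and KO (against 27.4% of all probes) and 5 between KO and CRL (against 21.1%). The 5 were Dlg3, Homer2 A_51_P352303, Homer1 A_55_P1982111, Shank1 A_55_P1994550 and Shank1 A_55_P2062187.

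Dlgap1 encodes GKAP, which binds the guanylate kinase domain of PSD-95 on one side and Shank proteins on the other. Its dimmest probe, A_52_P443073, held the largest difference of any scaffold probe between KO and CRL. The KO arrays gave 0.45, 0.51 and 0.09, the CRL arrays -0.36, -0.08 and 0.20 and the TG arrays 0.09, 0.40 and 0.02. KO replicate 3 lay below CRL replicate 3, so the groups overlapped. KO minus CRL was 0.43 (SE 0.19, 95% interval 0.00 to 0.86, limma adjusted P = 1), or 0.38 without the array labelled KO replicate 1. The lower end of that interval was just below 0. Within slide the difference was 0.66 on slide 2 and 0.10 on slide 3.

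The other Dlgap1 probes had smaller estimates in that comparison. For the brightest, A_51_P520650, KO minus CRL was 0.13 (SE 0.16, limma adjusted P = 1). Within arrays the difference between these 2 probes was 0.29 higher in KO, which the exact permutation test cannot call with 3 arrays against 3 (P = 0.2, smallest possible 0.1). For the variant 2 probe, A_55_P1959728, it was -0.14 (SE 0.17), and its lowest array, at 0.10, was the array labelled KO replicate 1. Without that array the variant 2 difference was 0.02.

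Shank proteins form the deeper layer of the scaffold and bind Dlgap proteins, Homer and the actin cytoskeleton. The 3 Shank1 probes differed by 0.11 to 0.21 between TG and CRL, all upward, with limma adjusted P from 0.728 to 0.874. Between TG and KO they differed by -0.10 to 0.18 and between KO and CRL by -0.02 to 0.21, and none passed. Without the array labelled KO replicate 1, A_55_P2062187 gave -0.25 between TG and KO and 0.37 between KO and CRL, and neither passed. TG replicate 3 was the highest of all arrays at the probes A_55_P1994554 and A_55_P1994550, at -0.34 and -1.29. Under the alternatives in processing and with arrays left out, TG minus CRL at A_55_P1994550 ran from 0.01 to 0.50. The 1 Shank2 probe, listed under variant 2, ranged from -4.72 on CRL replicate 1 to -4.32 on KO replicate 1, and its TG and KO means differed by 0.00 (SE 0.13, limma adjusted P = 0.996). That was the smallest of the 20 differences between TG and KO.

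Shank3 was measured by 2 probes. The brighter, A_51_P115626, gave 1.98, 2.07 and 1.88 on the KO arrays, 1.83, 2.06 and 1.87 on the CRL arrays and 1.65, 2.02 and 1.84 on the TG arrays. TG minus CRL was -0.08 (SE 0.13, 95% interval -0.38 to 0.22), and KO minus CRL was 0.05 (SE 0.13, interval -0.25 to 0.36). The dimmer, A_55_P2089858, ranged from -3.46 on TG replicate 1 to -2.72 on TG replicate 3, so the TG arrays spanned all others, and TG minus CRL was 0.20 (SE 0.18, limma adjusted P = 0.796). Under the alternatives in processing and with arrays left out, that difference ran from 0.01 to 0.57.

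Alone among the scaffold probes, A_51_P115626 was printed 10 times on each array, which shows the error of a single spot. The SD between its spots was 0.024 to 0.0372 on the 3 arrays of slide 3 and 0.108 to 0.245 on the 6 arrays of slides 1 and 2. Over 294 probes printed 10 times and well above background on all arrays, the median SD per array was 0.0432 to 0.0694 on slide 3 and 0.176 to 0.263 on the other slides. All TG arrays were on slides 1 and 2. For this probe the standard error of an array mean over its spots was 0.00758 to 0.0776, below the SD of 0.138 between the means of replicate mice. The pooled SD of single spots was 0.143. The other 19 scaffold probes had 1 spot per array, and the part of this spot error in their spread was not tested.

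**Figure D3:**
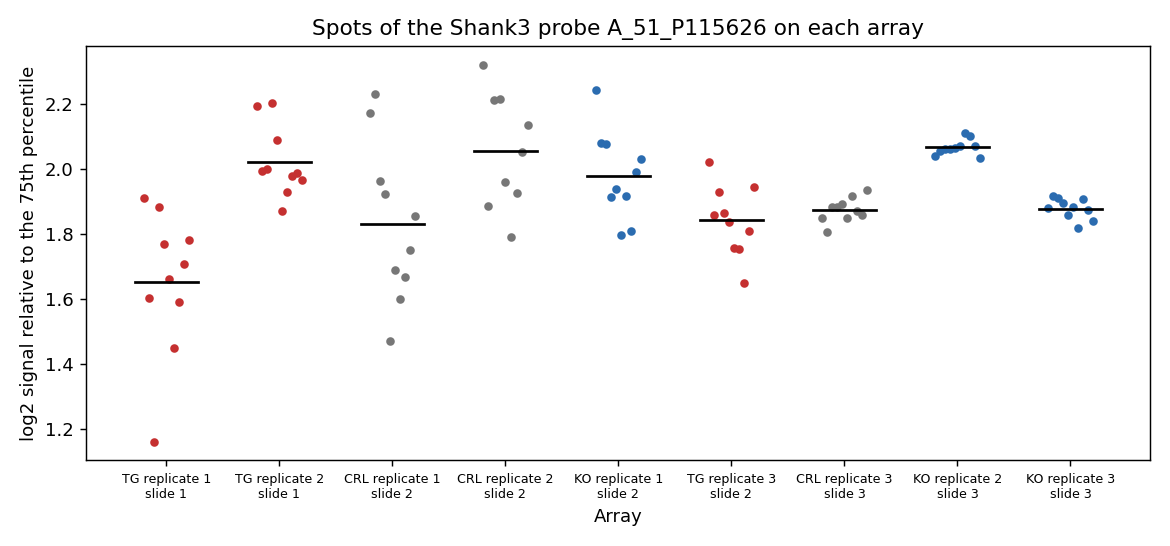
Each dot is 1 spot of Shank3 probe A_51_P115626, as log2 signal above the 75th percentile of that array (y axis), with arrays ordered by slide (x axis), coloured red for TG, grey for CRL and blue for KO, and a bar at the array mean. The spots of the 3 slide 3 arrays lie close together, with SDs of 0.024 to 0.0372, and those of the other 6 arrays are spread more widely.

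Whether the probes of a gene differed between genotypes by different amounts was examined within arrays, which needs no scaling between arrays. Each of 11 probes was set against the brightest probe of its gene. Between pairs of genotypes no probe passed an exact permutation test, which cannot go below 0.1 with 3 arrays against 3. With TG against the 6 other arrays, the dimmer Shank3 probe relative to the brighter was 0.30 higher in TG (two-sided exact permutation P = 0.0238, smallest possible 0.0119, adjusted P over 11 pairs 0.262). Its values were -5.11, -5.13 and -4.56 in TG and lay between -5.32 and -5.13 on the other arrays, so TG replicate 3 stood apart and the other two TG arrays were at the upper end of that range. Without TG replicate 3 the difference was 0.11 (exact permutation P = 0.107), and without TG replicate 1 it was 0.39 (exact permutation P = 0.0714).

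Homer proteins tie Shank to metabotropic glutamate receptors, and Homer1 had the most probes of any member. Its brightest probe, A_55_P1982111 of variant L, gave 0.85, 1.09 and 0.98 on the KO arrays, 0.92, 0.94 and 0.84 on the CRL arrays and 0.88, 0.99 and 1.15 on the TG arrays. These were among the tightest values of the scaffold genes, with an SD between replicates of 0.11. TG minus KO was 0.03 (SE 0.12, limma adjusted P = 0.954) and KO minus CRL was 0.07 (SE 0.12, adjusted P = 1), and all 3 of its 95% intervals lay inside a 1.5-fold change.

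The variant S probes had SDs of 0.23 to 0.60, and the other variant L probe one of 0.29. A_55_P1982122 gave -1.58, -1.36 and -1.23 on the KO arrays, -1.21, -1.10 and -1.67 on the CRL arrays and -0.96, -1.21 and -0.88 on the TG arrays. All TG arrays lay above all KO arrays, TG replicate 2 and KO replicate 3 by the least. TG minus KO was 0.38 (SE 0.18, limma adjusted P = 0.712), the largest scaffold difference in that comparison, and 0.28 without the array labelled KO replicate 1.

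The neighbouring probe A_55_P1982121, 25 bases away, was the most variable scaffold probe, and its difference from A_55_P1982122 was not tested. It gave -4.60, -4.37 and -4.63 on the KO arrays, -4.82, -4.04 and -4.90 on the CRL arrays and -4.89, -5.73 and -3.89 on the TG arrays. The lowest and the highest of all 9 arrays were both TG arrays, and its SD between replicates, 0.60, was larger than that of 93.7% of all probes tested. TG minus KO was -0.30 (SE 0.42, limma adjusted P = 0.879). Without TG replicate 3 it was -0.78, past the threshold (limma adjusted P = 0.547), and with slide as a fixed block it was 0.53.

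The remaining variant S probe, A_55_P2122789, was lowest on TG replicate 2, at -1.78, and highest on TG replicate 3, at -0.63, like A_55_P1982121. Its TG and CRL means differed by -0.06 (SE 0.31). The second variant L probe, A_66_P104134, was lowest on CRL replicate 3, at -0.71, and highest on CRL replicate 2, at 0.20, and its TG and CRL means differed by 0.02 (SE 0.22). Over the 5 Homer1 probes, the differences between TG and KO thus ran from -0.30 to 0.38, and 3 of the 5 were above 0. Without the array labelled KO replicate 1 they ran from -0.34 to 0.28, and 2 of the 5 were above 0, since A_55_P1982111 gave -0.03.

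**Figure D4:**
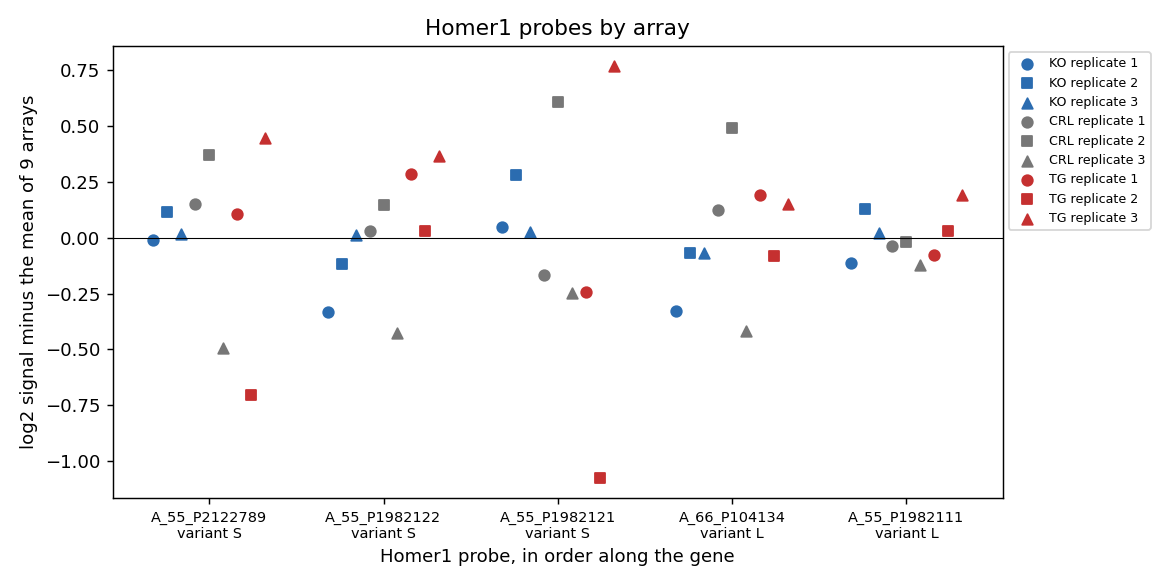
The log2 signal of each Homer1 probe minus its mean over 9 arrays (y axis) is shown for the 5 probes in order along the gene (x axis), with colours for genotypes and marker shapes for replicates. The variant L probe at the right end is tightly grouped, and TG replicate 2 and TG replicate 3 are the extremes of the variant S probes A_55_P2122789 and A_55_P1982121.

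Because Homer1a is activity induced, 13 immediate early genes measured here were set beside these probes. None of their 14 probes passed the threshold in any comparison, against 3.8%, 4.47% and 1.07% of all probes. By the brightest probe, 12 of the 13 genes were lower in TG than in KO (median -0.41) and 12 lower than in CRL (median -0.38), 2 comparisons that share the TG arrays. Of all 27991 probes tested, 13340 were lower in TG than in KO and 13963 lower than in CRL. The mean of the 13 genes, set against its mean over all arrays, was 0.19, 0.80 and -0.57 on the KO arrays, 0.13, 0.93 and -0.51 on the CRL arrays and -0.92, 0.18 and -0.23 on the TG arrays. Replicate 2 was the highest within each genotype. The lowest of all arrays was TG replicate 1, which was also lowest for the dentate gyrus, CA1, CA3 and interneuron genes. Of the Homer1 variant S probes, A_55_P1982121 and A_55_P2122789 were highest on replicate 2 within KO and CRL. A_55_P1982122 was highest on replicate 2 within CRL but on replicate 3 within KO. Within TG, all of these probes were lowest on replicate 2. The replicate numbers did not pair the samples, so the same number in different genotypes carries no link. Fos, an activity-induced transcription factor, ranged from -3.52 on TG replicate 1 to 0.29 on CRL replicate 2, and activity at the time of dissection was not tested as a part of the Homer1 spread.

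Homer2 encodes a second long-form Homer. Its brighter probe, A_51_P352303, gave 0.78, 0.71 and 0.75 on the KO arrays, 1.06, 0.91 and 0.95 on the CRL arrays and 1.13, 0.85 and 0.83 on the TG arrays. The KO arrays lay below all others and close to each other, with an SD of 0.03. KO minus CRL was -0.23 (SE 0.12, limma adjusted P = 1), with -0.21 within slide 2 and -0.22 within slide 3. TG minus KO was 0.19 (SE 0.12, limma adjusted P = 0.733), and 0.06 within slide 2, where KO and TG had 1 array each. The dimmer probe, A_52_P343298, gave -0.12 for KO minus CRL (SE 0.15), and its groups overlapped.

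The median SD between replicates of the 20 scaffold probes was 0.19, against 0.24 over all probes tested, as a description with no test. Dlg4 (0.27) and the Homer1 probes A_66_P104134 (0.29), A_55_P2122789 (0.43) and A_55_P1982121 (0.60) lay above the latter. The SD ran from 0.09 at the dimmer Dlg2 probe to 0.60 at Homer1 A_55_P1982121.

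Of 41 other scaffold and partner genes of the synapse, 40 were tested with 69 probes. Between TG and KO, 3 genes had a probe past the threshold, all higher in TG, with 4.35% of probes called against 3.8% of all probes. They were probes of the MAGUK relatives Magi1 (0.70, SE 0.22), Magi3 (0.82, SE 0.24) and Mpp3 (0.69, SE 0.29). Between TG and CRL, probes of the signalling scaffold Cnksr2 (0.62, SE 0.16), the kinase subunit Camk2b (0.85, SE 0.22), Mpp3 (0.82, SE 0.29) and Magi3 (0.59, SE 0.24) were higher, and that of Dlgap2, a relative of Dlgap1, was lower (-0.59, SE 0.25), with 7.25% of probes called against 4.47%. None of these genes was called between KO and CRL. The probes of Magi3 and Dlgap2 were the brightest of their genes, and the other probes named were not. The dimmer Magi3 probe, A_52_P518182, gave 0.12 between TG and KO and 0.17 between TG and CRL, and neither passed. Dlgap2 gave -0.51, -1.44 and -0.53 on the TG arrays and -0.08, -0.14 and -0.51 on the CRL arrays. TG replicate 2 thus stood apart, and the other TG arrays lay close to CRL replicate 3. The brightest probe gave 0.22 for Magi1 and 0.09 for Mpp3 between TG and KO, and -0.12 for Cnksr2, 0.04 for Camk2b and 0.28 for Mpp3 between TG and CRL, none of which passed. The lowest adjusted P of the list was 0.414, so none passed after Benjamini-Hochberg adjustment over all probes in limma.

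Of the 20 receptors and channels that these scaffolds bind, tested with 32 probes, the adhesion protein gene Nlgn1 had a probe higher in TG than in KO (0.71, SE 0.27) and in CRL (0.77, SE 0.27). A probe of Grin2b, an NMDA receptor subunit whose tail binds PSD-95, was higher in TG than in CRL (1.06, SE 0.33), with 0.77, 0.37 and 1.70 on the TG arrays and -0.22, 0.30 and -0.42 on the CRL arrays. A probe of Grm5, the metabotropic receptor that Homer binds, was higher in KO than in CRL (0.75, SE 0.21, limma adjusted P = 1). Of the 32 probes, 3.12% were called between TG and KO, 6.25% between TG and CRL and 3.12% between KO and CRL, that is, 1, 2 and 1 probes, against 3.8%, 4.47% and 1.07% of all probes. None of the probes named was the brightest of its gene. In the same comparisons the brightest probe gave 0.04 and 0.05 for Nlgn1, 0.21 for Grin2b and 0.04 for Grm5, and none of these passed. No probe of the list passed after adjustment.

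The genes whose values over the 9 arrays were most like those of 3 scaffold probes are given as a description. For Dlg4 they were Mast1 (Pearson r 0.986), Rgs12 (0.979) and Tat (0.966). For Homer1 A_55_P1982111 they were Lhx1os (0.956), Tmem132d (0.951) and Mcf2l (0.95), and for Shank3 A_51_P115626 Ier5l (0.961), Eng (0.959) and Actn4 (0.958). These were the highest of 27703, 27699 and 27702 probes searched for Dlg4, Homer1 and Shank3, over 9 arrays that share slides and scaling.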

How the data were processed

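Per the labels, each sample was 1 mouse hybridized to 1 array. For each spot the authors deposited the intensity from Agilent Feature Extraction 10.7.3.1, background-subtracted and without normalization between arrays, together with other marks (well above background, saturated, outlier). Control and outlier spots were dropped, the 75th percentile of each array was subtracted on the log2 scale, and repeated spots were averaged. A probe was kept if its signal was well above background throughout 1 genotype, which left 27991 of 39429. A single limma 3.58.1 model with eBayes (R 4.3.3) held all 9 arrays, with genotype and no covariate. The threshold, a 1.5-fold change with an unadjusted P below 0.05, is that of the study's methods, and Benjamini-Hochberg adjustment ran over all kept probes. Genes are given by their brightest probe unless another is stated, and genes of the partner lists are named where a probe passed. Two-sided exact permutation tests compared probes of 1 gene. The steps were tested on simulated data. The members and lists were chosen with earlier results of these data known. All 9 genes matched a RefSeq symbol, and probe positions follow the annotation in the deposited files (mm9). Alternatives were normexp (offset 50) with quantile normalization, quantile normalization only, no filter or a filter over all 9 arrays, slide as a block (fixed, then random), a replicate block, fits restricted to each pair of genotypes, trend and robust eBayes, gene means over probes, array weights, and each array left out. The number of arrays limits the precision.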

Additional observations from a re-analysis of the deposited data

How the results depend on the processing

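The count of 0 scaffold probes past the threshold held under all alternatives run in the comparison of KO with CRL and in the F test, which was not run on gene means or on pairs of genotypes. It was 1 between TG and CRL with slide as a fixed block (Dlg4, against 7.92% of all probes), where 5 of 20 scaffold probes and 11.1% of all probes had an unadjusted P below 0.05, and with each array left out it ranged from 0 to 1 between TG and KO (Homer1 A_55_P1982121, without TG replicate 3, where 5.72% of all probes passed) and stayed at 0 between TG and CRL. The number of within-gene probe pairs with an exact permutation P below 0.05, 1 of 11, was 2 with normexp and quantile normalization and 0 to 2 with each array left out (0 without TG replicate 1, 2 without TG replicate 2, and 1 without TG replicate 3, where it was no longer the Shank3 pair). The Atpif1 difference between KO and CRL was -0.36 with slide as a fixed block, -0.66 with array weights, an alternative chosen after seeing the data, and -0.92 to -0.30 with each array left out, the former without the array labelled KO replicate 1. Of 1137 values of single scaffold differences under the alternatives, 22 moved by more than the SD between replicates, 16 of them with slide as a fixed block, and 2 passed the threshold. Of the 60 differences, 29 changed sign under at least 1 alternative, the largest of these being 0.302 in size. The replicate numbers did not pair the samples, since deviations of same-numbered arrays correlated at -0.165 to 0.116 and 0 of 9 arrays correlated best with its own number. With the replicate block 0 scaffold probes passed in each comparison. Of the 20 scaffold probes, 19 had 1 spot per array, and 3 mice per genotype limit the precision.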
